A study of Homo sapiens with 21 samples.

Results

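The comparison described here set 2 sets of libraries against each other, both labelled as combinations of hairpins against ARID1A and ARID1B. They were the 3 libraries labelled shARID1A/B.2.3 and the 3 labelled shARID1A/B.4.2, which is 6 of the 21 libraries of the series. The members were taken by library label alone, and every gene of the deposited table was open to the test. The cells were SK-N-BE(2), a human neuroblastoma line that carries an amplified MYCN gene, and all 21 libraries came from cells transduced with lentivirus and collected 72 h later. The other 15 libraries were a control and the conditions labelled shARID1A.2, shARID1A.4, shARID1B.2 and shARID1B.3, with 3 libraries each, and none of them entered the test. The samples are described as biological triplicates, and nothing more is given on separate cultures or virus batches, so p-values measure the spread between these libraries. The control mean is quoted as a point of reference only. Each value is a normalized count, that is the reads on a gene divided by 1 size factor per library.

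ARID1A and ARID1B are alternative large subunits of the BAF form of the SWI/SNF chromatin remodelling complex, which slides and evicts nucleosomes. A BAF complex carries one or the other. A short hairpin RNA (shRNA) is cut into a small RNA that guides the Argonaute proteins to transcripts with a matching sequence. Besides the intended transcript it can lower others with a partial match, and for that reason experiments commonly use more than 1 hairpin per gene. Differences between sets of libraries with different hairpins can belong to the hairpins or to the depth of silencing. The comparison made here cannot tell these apart.

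The silenced genes went against the labels. ARID1A (chromosome 1, 26693236 to 26782110, GRCh38, GENCODE release 29) had normalized counts of 5510, 5752 and 5714 in shARID1A/B.2.3 and of 5589, 5352 and 5379 in shARID1A/B.4.2. These means were 89.7% and 86.2% of the control mean of 6312, so ARID1A was close to the control level in both sets although the labels name it as a target. The sets overlapped in ARID1A, and the difference of 0.06 on the log2 scale (standard error 0.027, 95% interval -0.002 to 0.115, adjusted p = 0.0696 from limma) did not pass the threshold. The difference was -0.10 when libraries were scaled by total reads (adjusted p = 0.00498 from limma), so neither its direction nor its call held. ARID1B (chromosome 6, 156776020 to 157210779) had 2540, 2651 and 2607 in shARID1A/B.2.3 and 1886, 1881 and 1955 in shARID1A/B.4.2. Both sets were below the control mean of 5796, at 44.8% and 32.9% of it, and they did not overlap. The difference in ARID1B was 0.45 (standard error 0.031, adjusted p = 1.04e-08 from limma), so silencing was deeper in shARID1A/B.4.2. In the other conditions ARID1A was low in the libraries labelled shARID1B.2 and shARID1B.3, and both genes were low in those labelled shARID1A.2 and shARID1A.4. Hence the names used in the following are the names of libraries, not of silenced genes.

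**Figure D1:**
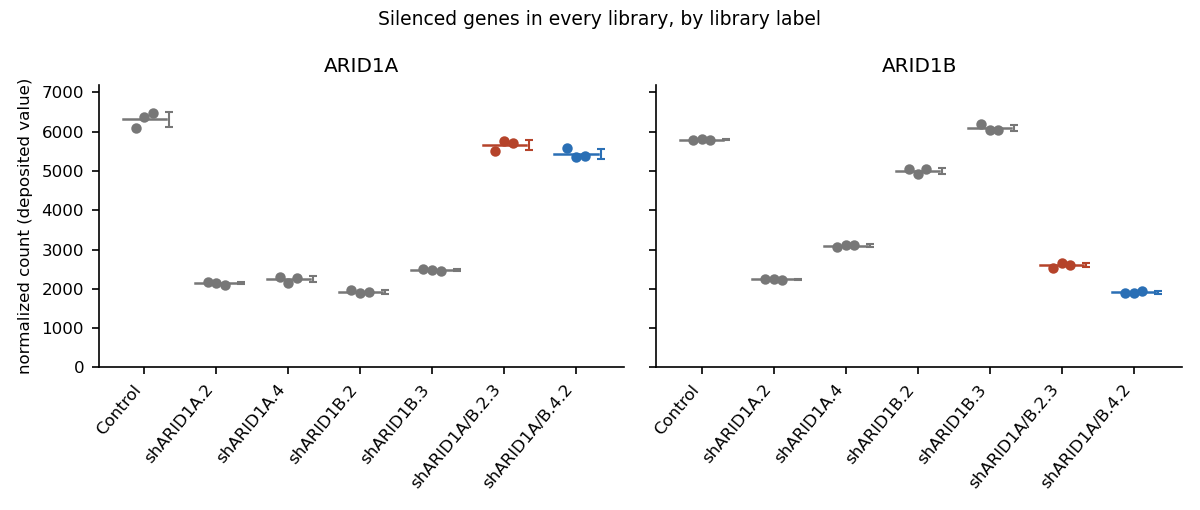
Normalized counts (y axis) of ARID1A on the left and ARID1B on the right in every library, by library label (x axis). Points are libraries, horizontal lines are means and bars are 1 SD of 3 libraries. ARID1A lay between 5352 and 5752 in both compared sets, close to the control, and ARID1B lay between 1881 and 2651.

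Recovered reads per library were 33361302 to 40905514, and the first principal component, which separated the sets, held 83.7% of the variance of the 6 libraries. The markers of a neuroblastoma were present in all 6, with MYCN at 84499 to 221301 and CHGA at 21169 to 35542. Summed over 13 immune markers the normalized count was 142 to 181 in shARID1A/B.2.3 and 250 to 274 in shARID1A/B.4.2, with HBA1, HBB, ITGAM and MS4A1 at 0. Summed over 9 epithelial markers it was 158 to 198 and 284 to 319, with KRT14 and KRT5 at 0. Fibroblast and endothelial markers summed to 19433 to 19757 and 14599 to 15226 over 11 genes. Without COL1A1 the direction turned, and the sums were 11880 to 12240 and 13857 to 14323. Schwann cell markers summed to 1545 to 1605 and 1356 to 1432 over 8 genes, with CDH19 and SOX10 at 0. Their part in the differences was not tested. In bulk RNA, fewer cells of a type and less RNA per cell cannot be told apart.

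Most of the transcriptome differed between the sets. Of 17307 genes tested, 13593 passed an adjusted p of 0.05 with limma (78.5% of the genes tested), 6830 of them higher in shARID1A/B.2.3 (39.5%) and 6763 lower (39.1%). Past a 2-fold difference there were 3776 genes (21.8%), with 1693 higher (9.78%) and 2083 lower (12%). The libraries of the sets did not overlap in 13903 genes (80.3%, with 40.3% higher and 40.1% lower) and in 3741 of the 3776. The typical difference was small, with a median size of 0.49 on the log2 scale over all genes tested. There were 796 genes past 4-fold, 354 higher and 442 lower, and 174 past 8-fold. When libraries were scaled by total reads the median of all genes moved from -0.007 to -0.158, and the share of higher genes among calls went from 50.2% to 39.3% (44.8% to 33.0% past 2-fold). With upper-quartile scaling the median was -0.106 and the shares were 43.0% and 36.4%.

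Under the filter on low reads used here, the genes past 2-fold differed in kind by direction. Among those lower in shARID1A/B.2.3, 29.2% were long non-coding RNA genes, against 9.92% of those higher and 13% of all genes tested. The lower genes were also weakly expressed, with a median mean count of 54.7, against 302 for the higher genes and 594 for all. The filter also kept genes with enough reads in a single set. With at least 10 reads asked in every library, 1410 higher and 1333 lower genes were past 2-fold. The share of long non-coding RNA genes was not computed under that stricter filter. Genes above 0 numbered 25379 to 25863 per library in shARID1A/B.4.2 and 24152 to 24467 in shARID1A/B.2.3.

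In the largest differences the sets mostly lay on opposite sides of the control. The control mean lay between them in 2559 of the 3776 genes past 2-fold (67.8%) and in 6906 of all 17307 (39.9%). A wider gap holds the control more often by construction, so the shares are a description. Both sets lay on the same side of the control with shARID1A/B.4.2 nearer to it in 14.1% of the genes past 2-fold, and with shARID1A/B.2.3 nearer to it in 18.1%.

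Among the genes far higher in shARID1A/B.2.3 was IGF2 (chromosome 11, 2129112 to 2149603, minus strand), a fetal growth factor. It had normalized counts of 7227, 7512 and 7623 against 160, 131 and 123 in shARID1A/B.4.2, on either side of a control mean of 650.0. Its difference was 5.75 (standard error 0.075, adjusted p = 6.2e-16 from limma). Its imprinted neighbour H19 (chromosome 11, 1995176 to 2001470, minus strand), a non-coding RNA, had 105300, 100940 and 105760 against 13234, 13025 and 13244, a difference of 2.98. HMOX1, the haem-degrading enzyme that responds to oxidative stress, had 2184, 2446 and 2264 against 51.9, 62.6 and 53.4. IGF2 and HMOX1 were above the control level in one set and below it in the other, and the libraries did not overlap. CHAC1, which degrades glutathione, had 2197, 2161 and 2183 against 79.2, 110 and 63.7. ASS1, the argininosuccinate synthase of arginine supply, had 12434, 12116 and 12341 against 670, 660 and 619, with a control mean of 3997. SLC7A11, the cystine importer, had 5217, 5360 and 5130 against 413, 355 and 407. The differences of HMOX1, CHAC1, ASS1 and SLC7A11 were 5.34, 4.71, 4.24 and 3.74. INHBE, an activin subunit, was seen in 782 reads over the shARID1A/B.2.3 libraries and 9 over the others, a 101-fold ratio whose 95% counting interval was 53 to 222.

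The other protein-coding genes of this group were MALL, KCNK9, GRB10, ADM2, PKP1 and TCF7, higher by log2 differences between 3.75 (TCF7) and 4.4 (MALL). GRB10 is an adaptor that restrains insulin and IGF receptor signalling, and TCF7 is a nuclear partner of beta-catenin. MALL was far under the control in shARID1A/B.4.2 (19.1, 22.4 and 20.6 against a control mean of 217) and was above it in shARID1A/B.2.3 (441, 483 and 446). For PKP1, a desmosomal plakophilin, shARID1A/B.2.3 was near the control, with 187, 194 and 189 against a mean of 198, and shARID1A/B.4.2 had 9.11, 15.5 and 15.9. Of genes outside the protein-coding class, FAM30A (chromosome 14, 105917979 to 105932642) had 14036, 14694 and 14806 against 487, 426 and 497. IGHM, the mu heavy chain gene located near it (chromosome 14, 105851705 to 105856218, minus strand), was higher by 4.12, and PEG13 by 3.60.

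The genes far lower in shARID1A/B.2.3 had among them a pair of neighbours on chromosome 11. HTR3A (113974881 to 113990313) and HTR3B (113904677 to 113946565) code for the subunits of the serotonin-gated 5-HT3 ion channel. HTR3A had normalized counts of 8.10, 18.8 and 14.6 against 540, 486 and 490, with a control mean of 31.3. HTR3B had 15.2, 11.5 and 10.7 against 200.4, 232 and 231. The channel genes were thus lowest in one set and well above the control in the other. SCN3B, a beta subunit of voltage-gated sodium channels (chromosome 11, 123629187 to 123655244, minus strand), had 886, 985 and 922 against 14532, 14660 and 14408, and a control mean of 2106. The differences of HTR3A, HTR3B and SCN3B were -5.16, -4.06 and -3.96 (adjusted p = 5.17e-11, 4.91e-11 and 1.83e-17 from limma). RBM24, TM4SF4, XKR5, ACBD7, NELL2, KIAA0040 and ENPP4 were lower by log2 differences of -4.04 (RBM24) to -3.0 (ENPP4). Among other classes of gene MIR7-3HG, the host gene of a miR-7 precursor, had 13.2, 1.0 and 10.7 against 353, 299 and 300, a 37.7-fold ratio with a counting interval of 25.4 to 58.5. SSPO and PCAT14 had differences of -3.34 and -3.15.

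HNRNPA1 was the most abundant gene of this group. It encodes an abundant RNA-binding protein that coats pre-mRNA and takes part in splice site choice (chromosome 12, 54280193 to 54287088). It had 7118, 7027 and 7218 in shARID1A/B.2.3 against 77234, 75378 and 73121 in shARID1A/B.4.2. The control mean was 80630, so shARID1A/B.4.2 was near the control level and only shARID1A/B.2.3 of the compared sets was far from it. The values were 10.6-fold apart (log2 difference -3.40, standard error 0.024, adjusted p = 5.83e-18 from limma). HNRNPA1P48 had 117, 76.1 and 68.1 against 1013, 986 and 1012, but it shares sequence with HNRNPA1 and its own reads are uncertain. XKR5 and ACBD7 likewise had shARID1A/B.4.2 nearer to the control.

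**Figure D2:**
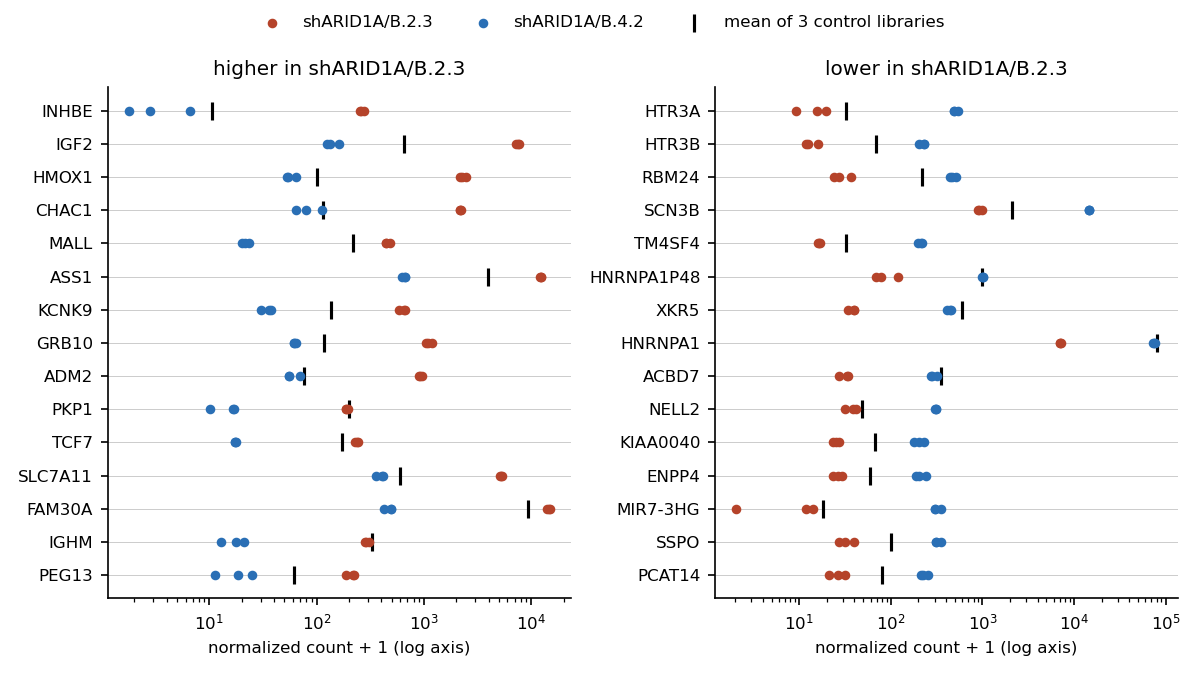
Normalized count plus 1 (x axis, log scale) of the genes with the largest differences (y axis), higher on the left and lower on the right, with the genes of other classes in the last 3 rows. Points are single libraries and black ticks are means of 3 control libraries. In HNRNPA1 the 3 shARID1A/B.2.3 libraries sit between 7027 and 7218, far under a control mean of 80630, whereas in IGF2 the control tick lies between the sets.

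The other silenced conditions gave libraries that had no part in the test. The conditions labelled shARID1A.4 and shARID1A.2 were set against each other in the same way, as were shARID1B.3 and shARID1B.2, in pairs and directions chosen after their values were seen. In the shARID1A.4 libraries HNRNPA1 had 6444 to 6618, and in shARID1A.2, shARID1B.2 and shARID1B.3 it had 80845 to 114250. Low HNRNPA1 was therefore found in the libraries labelled shARID1A/B.2.3 and shARID1A.4, and in no other condition of the series. IGF2 had 5891 to 6427 in shARID1A.4 and 72.4 to 79.3 in shARID1A.2, HMOX1 had 1876 to 2025 and 37.9 to 52.4, and SCN3B had 1171 to 1302 and 22440 to 22851. For these genes shARID1A.4 took the place of shARID1A/B.2.3 and shARID1A.2 that of shARID1A/B.4.2. By the first number in the labels, shARID1A.2 would instead go with shARID1A/B.2.3 and shARID1A.4 with shARID1A/B.4.2, so this match runs across the labels. Whether any of these sets share a hairpin was not tested.

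The same likeness of shARID1A.4 to shARID1A/B.2.3 held for the whole group. All 30 genes with the largest differences differed in the same direction between shARID1A.4 and shARID1A.2, each past 2-fold and the adjusted p of 0.05 from limma. Between these conditions 79.4% of 17284 genes were called, 39.4% higher and 40.0% lower, and past 2-fold the shares were 9.64% and 13.9%. Of the 1693 genes past 2-fold and higher in shARID1A/B.2.3, 1604 were tested in this second pair, and 982 of them (61.2%, or 58.9% of the 1667 genes past 2-fold there) were also past 2-fold and higher in shARID1A.4. Of the 1969 lower genes tested in it, 1350 (68.6%, or 56.0% of 2410) were past 2-fold and lower. Past 2-fold in the opposite direction there were 2 genes of each set. Over 16846 genes tested in both pairs the differences had a Pearson correlation of 0.82 and a Spearman correlation of 0.80. They are given as a description, since genes are not independent and the libraries share a cell line and a protocol, and perhaps hairpins. ARID1B was 0.47 higher in shARID1A.4 than in shARID1A.2 (adjusted p = 7.53e-10 from limma), close to its 0.45 in the main pair.

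The pair of shARID1B.3 and shARID1B.2, where 69.9% of genes were called (35.3% higher and 34.5% lower), showed little of this. The correlation with the main pair was 0.12 over 16718 genes. Of the 30 genes, 17 were called in the same direction, among them IGF2 (2.31) and FAM30A (2.39), and 6 in the opposite one, among them HMOX1 (-0.72) and KCNK9 (-0.91). HNRNPA1 differed by -0.39. ARID1B was 0.28 higher in shARID1B.3 than in shARID1B.2 (adjusted p = 5.35e-07 from limma), and ARID1A 0.37 higher (adjusted p = 3.1e-07 from limma). Of the 1577 higher genes tested, 12.4% were past 2-fold in the same direction (21.6% of the 902 genes past 2-fold and higher there) and 194 genes in the opposite one, where 5.25% and 8.17% of 17186 genes were past 2-fold higher and lower. Of the 1886 lower genes, 293 (15.5%, or 20.9% of 1404) were past 2-fold in the same direction and 99 in the other.

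**Figure D3:**
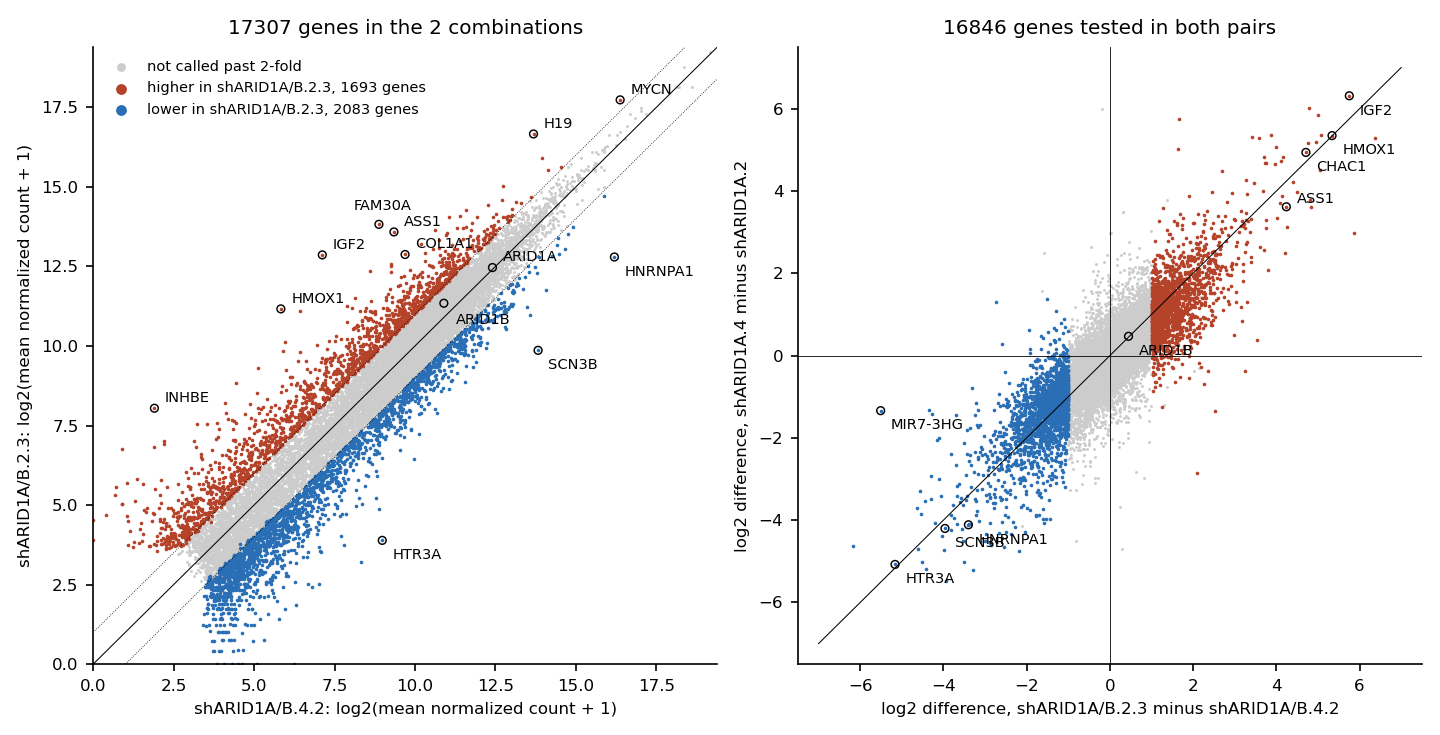
Left, log2 of the mean normalized count plus 1 in shARID1A/B.4.2 (x axis) and shARID1A/B.2.3 (y axis), with dotted lines at 2-fold. Right, the log2 difference between them (x axis) and that between shARID1A.4 and shARID1A.2 (y axis) for 16846 genes, with the line of equality. Points are genes, in red and blue where the main difference passed 2-fold, and they run along the line of equality with a Pearson correlation of 0.82.

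The genes of the integrated stress response were the list with the highest median. In this response the translation factor eIF2 is phosphorylated, general protein synthesis slows and the transcription factor ATF4 is made, which switches on amino acid transport, amino acid synthesis and tRNA charging. The ATF4 element, here the letters TGATGNAA on either strand, was searched in RefSeq promoters (GRCh38.p14, 250 bases before to 50 after each listed start), a motif chosen after values were seen. It was found in 5 of the 16 members with a promoter entry that were past 2-fold and higher in shARID1A/B.2.3 (31.2%), in 7 of all 25 members tested with one (28.0%), in 2.85% of 11600 genes tested and in 4.46% of 27305 genes with an entry. The CHAC1 promoter (chr15:40953221-40953520, plus strand) and the ASNS promoter (chr7:97872359-97872658, minus strand) are shown because these genes are among the members that rose, with the element in capitals.
CHAC1: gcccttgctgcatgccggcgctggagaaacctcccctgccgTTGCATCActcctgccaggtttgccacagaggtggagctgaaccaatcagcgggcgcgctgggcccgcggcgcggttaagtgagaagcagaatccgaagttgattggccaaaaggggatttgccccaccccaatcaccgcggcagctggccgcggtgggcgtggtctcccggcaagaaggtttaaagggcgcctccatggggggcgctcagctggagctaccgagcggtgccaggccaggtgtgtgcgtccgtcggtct
ASNS: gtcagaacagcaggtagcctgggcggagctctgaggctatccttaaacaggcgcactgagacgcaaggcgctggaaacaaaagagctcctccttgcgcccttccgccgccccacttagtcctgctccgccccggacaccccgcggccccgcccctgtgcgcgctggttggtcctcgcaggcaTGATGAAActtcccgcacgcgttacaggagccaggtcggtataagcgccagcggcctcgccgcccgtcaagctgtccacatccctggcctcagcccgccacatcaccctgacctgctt
A match is a description of the letters and not a bound site.

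Of 31 stress response genes tested, from 32 listed, 29 were called higher in shARID1A/B.2.3, where 39.5% of all genes were, and 1 lower. Past 2-fold there were 22 higher and 0 lower, where 9.78% and 12% of all genes were. The median difference of the list was 1.44, against -0.007 over all genes. ATF4 itself differed little, with 18531, 18350 and 18637 against 15478, 15433 and 15057 (0.27). ATF5, a related transcription factor, had 2931, 2962 and 2941 against 282, 275 and 289, with a control mean of 459. NUPR1, a small stress-induced chromatin protein, had 179, 205 and 178 against 8.20, 3.09 and 14.1. For both genes the sets were on either side of the control.

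Enzymes of serine and one-carbon metabolism belong to the same list. PSAT1, which makes phosphoserine, had 17476, 17356 and 17083 against 2699, 2726 and 2761, with a control mean of 8859. MTHFD2, a mitochondrial folate enzyme, had 17341, 17020 and 17124 against 2102, 2084 and 2154, with a control mean of 7996. Both fell under the control in shARID1A/B.4.2 as well as rising above it in the other set. The control mean lay between the sets in 22 of the 31 genes. Chosen after their values were seen, ASNS (asparagine synthetase) differed by 2.05, SLC7A5 (a leucine importer) by 2.29 and DDIT3, the stress factor CHOP, by 0.97. DDIT3 was above its control mean of 493 in both sets. The members outside the direction of the rest were VLDLR, lower by a difference of -0.58, and CTH, at 0.02 with an adjusted p of 0.88 from limma.

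**Figure D4:**
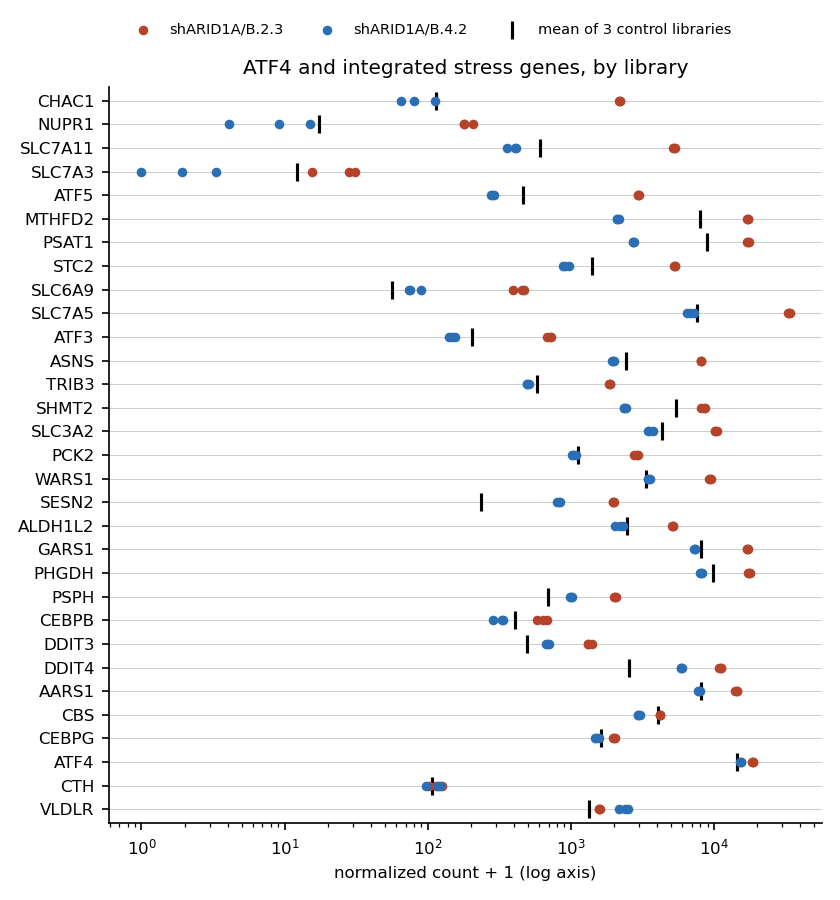
Normalized count plus 1 (x axis, log scale) of the 31 stress response genes (y axis), ordered by difference. Points are single libraries and black ticks are means of 3 control libraries. In CHAC1, ATF5 and SLC7A5 the shARID1A/B.2.3 libraries stand apart on the right, and in CTH the sets overlap.

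In the second pair, shARID1A.4 against shARID1A.2, 30 of the 31 genes were called higher and 26 past 2-fold, with a median of 1.98. Of all genes there 39.4% were higher, and 9.64% were past 2-fold and higher. In the pair of shARID1B.3 and shARID1B.2, 25 of the 31 were called higher and 3 lower, where 35.3% and 34.5% of all genes were. The median of the list was 1.01. Past 2-fold there were 16 higher and 1 lower in that pair, where 5.25% and 8.17% of all genes were. The unfolded protein response list covers chaperones and sensors of the endoplasmic reticulum. It had 6 of 18 higher and 9 lower, where 39.5% and 39.1% of all genes were, with a median of -0.06. Its members XBP1, HERPUD1 and ERN1 were past 2-fold, at 1.53, 1.25 and 1.19. Of 15 heat-shock genes 10 were higher and 5 lower, with BAG3 at 1.38.

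Interferon-stimulated genes code for sensors of foreign RNA and for antiviral proteins, and double-stranded RNA in a cell is one of their known triggers. Many have in their promoter an interferon response element, here GAAA and, after any 2 bases, again GAAA, on either strand. It was found in 8 of 9 members past 2-fold with a promoter entry (88.9%), in 16 of all 20 members tested with one (80.0%) and in 4.38% of genes with an entry. The promoters of IFITM3 (chr11:320811-321110, minus strand) and TLR3 (chr4:186068906-186069205, plus strand) are shown since they lead the list, with the element in capitals.
IFITM3: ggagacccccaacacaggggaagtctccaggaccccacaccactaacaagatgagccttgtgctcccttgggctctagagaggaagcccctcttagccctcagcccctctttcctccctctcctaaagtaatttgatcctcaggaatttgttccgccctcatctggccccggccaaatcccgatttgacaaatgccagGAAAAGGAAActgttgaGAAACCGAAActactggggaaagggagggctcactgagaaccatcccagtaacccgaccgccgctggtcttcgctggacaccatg
TLR3: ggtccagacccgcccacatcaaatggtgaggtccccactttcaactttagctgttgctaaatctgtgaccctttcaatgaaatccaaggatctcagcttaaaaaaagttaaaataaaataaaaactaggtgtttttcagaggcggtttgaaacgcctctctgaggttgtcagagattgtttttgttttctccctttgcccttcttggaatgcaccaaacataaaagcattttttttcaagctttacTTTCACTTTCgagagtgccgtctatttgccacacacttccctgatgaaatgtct

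The filter on low reads kept 25 of 34 listed interferon genes, and 17 of these were called higher in shARID1A/B.2.3 (39.5% of all genes) and 5 lower (39.1%). Past 2-fold there were 12 higher and 0 lower, where 9.78% and 12% of all genes were. The list median was 0.82. With at least 10 reads asked in every library, which removes genes near 0 in one set, 10 were called higher and the median was 0.48. TLR3, the endosomal receptor for double-stranded RNA, had 102, 100 and 124 in shARID1A/B.2.3 and was seen in only 3 reads over the shARID1A/B.4.2 libraries. Its ratio was 126-fold with a counting interval of 42.6 to 612. IFITM3, which blocks the entry of enveloped viruses, had 110, 101 and 124 against 11.8, 7.72 and 4.68, under a control mean of 226 in both sets, and its reads cannot be fully told from those of the similar IFITM2. IFIT2, which binds viral RNA, had 318, 265 and 281 against 29, 27 and 29, on either side of a control mean of 95.5. OAS3, a synthetase of the signal that activates RNase L, had 1124, 1127 and 1126 against 252, 253 and 276, with a control mean of 1524. In IFITM3 and OAS3 both sets were thus below the control, and shARID1A/B.4.2 was the lower one. The members called lower, chosen here after their values were seen, were BST2, STAT2, IFI27, IRF9 and IRF7, at -0.89 to -0.57. In the second pair 13 genes were called higher and 10 lower, where 39.4% and 40.0% of all genes were. The list median was 0.35 there, and in the third pair it was -0.53.

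Most proliferation genes were lower in shARID1A/B.2.3, by small steps. Of 43 S-phase genes, which replicate DNA, 29 were called lower and 11 higher, against 39.1% and 39.5% of all genes, with a median of -0.34. Of 54 G2/M genes, which build the spindle and divide the cell, 45 were lower and 6 higher, with a median of -0.44. The numbers past 2-fold were 0 lower and 1 higher in S phase (SLBP, the histone mRNA binding protein, at 1.27). In G2/M they were 1 lower and 0 higher (GAS2L3, which links actin and microtubules, at -1.17). Of all genes 12% were past 2-fold and lower and 9.78% past 2-fold and higher. TTK, a spindle checkpoint kinase, had 874, 836 and 814 against 1634, 1598 and 1714, and both sets were under its control mean of 2620. GINS2, a part of the replicative helicase, had 776, 666 and 708 against 1401, 1472 and 1371, with a control mean of 1656. In these genes shARID1A/B.4.2 lay nearer to the control, and the control mean lay between the sets in 1 of 43 S-phase and 3 of 54 G2/M genes. In the pair of shARID1A.4 and shARID1A.2 the medians were -0.02 and -0.19, with 18 S-phase genes lower and 20 higher. Of all genes in that pair 40.0% were lower and 39.4% higher. In the pair of shARID1B.3 and shARID1B.2 the medians were 0.44 and 0.27. There 36 of 43 S-phase and 40 of 54 G2/M genes were higher and 3 of each list lower. Of all genes in that pair 35.3% were higher and 34.5% lower.

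The regulators of the G1 phase were split, with 7 of 17 genes higher and 10 lower, where 39.5% and 39.1% of all genes were. CDK6, a cyclin D dependent kinase, had 19544, 20045 and 19360 against 3365, 2794 and 3122. shARID1A/B.2.3 was close to the control mean of 18513, and the difference was 2.67. CDKN1A, the inhibitor p21, had 247, 225 and 263 against 41.9, 47.1 and 44.0, with a control mean of 146. CCND1, which encodes cyclin D1, moved the other way, with 13993, 14163 and 13816 against 26111, 28612 and 27159 under a control mean of 39739. CDK2 and CDKN1C (p57) were lower by differences of -0.95 and -1.11. Among 25 p53 target genes 11 were higher and 8 lower, with a median of -0.04. Past 2-fold in either direction there were 13 of them, where 21.8% of all genes were. GDF15, a stress-induced cytokine, was seen in 355 reads against 12, a 34.4-fold ratio with a counting interval up to 67.2, PMAIP1 (NOXA) was higher by 2.76 and BTG2 was lower by a difference of -2.03. Of 15 BCL2 family genes 9 were higher, BCL2 at 1.56 among them, and 5 lower, BCL2L2 at -1.59 and BCL2L11 (BIM) at -1.20. The lower CCND1 did not recur in the other pairs. Between shARID1A.4 and shARID1A.2 CCND1 was at 0.18, CDK6 at 2.66 and CDKN1A at 2.33. Between shARID1B.3 and shARID1B.2 they were at 0.79, -0.01 and 1.15.

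Other subunits of the complex that ARID1A and ARID1B belong to were measured too. Of 29 SWI/SNF subunit genes, ARID1A and ARID1B included, 18 were higher in shARID1A/B.2.3 and 8 lower, where 39.5% and 39.1% of all genes were, with a median of 0.13 that turned to -0.02 when libraries were scaled by total reads, where 8 were higher. Past 2-fold there were 10.3% of the list, against 21.8% of all genes. SMARCD1, a subunit of the core, had 2034, 2226 and 2083 against 7204, 6837 and 6921, on either side of a control mean of 4961 (difference -1.72). PBRM1, which defines the PBAF form, had 3328, 3327 and 3290 against 1241, 1250 and 1172, with a control mean of 3753 (1.44). DPF2, a histone reader of the BAF form, had 3549, 3789 and 3835 against 1580, 1611 and 1526, with a control mean of 2944 (1.24). In SMARCD1 the shARID1A/B.2.3 libraries were the low ones, and in PBRM1 and DPF2 those of shARID1A/B.4.2. PHF10 and BICRAL had differences of -0.94 and -0.86, and SMARCD3 one of 0.92. The same 3 genes had means of 1870, 3405 and 3860 in shARID1A.4 and 6195, 1199 and 1761 in shARID1A.2, in the order SMARCD1, PBRM1 and DPF2.

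Genes of the machinery that processes microRNAs and shRNAs were also measured, 13 in all. Of these 7 were higher and 3 lower, where 39.5% and 39.1% of all genes were. AGO2, the Argonaute protein that cuts target transcripts, had 9269, 9704 and 9376 against 4456, 4274 and 4494, with a control mean of 7209 (1.10). DROSHA, the nuclear nuclease of microRNA precursors, had 2638, 2810 and 2649 against 4126, 4171 and 4130 (-0.62). XPO5, the exporter of hairpins, and TNRC6A, a partner of Argonaute, were higher by 0.56 and 0.80.

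Neuroblastoma cells are related to sympathetic neurons and make catecholamines. Of 10 genes for catecholamine synthesis, storage and breakdown 7 were higher in shARID1A/B.2.3 and 3 lower, against 39.5% and 39.1% of all genes, with a median of 1.01. With at least 10 reads asked in every library the list median was 0.73. It was 0.625 in the pair of shARID1A.4 and shARID1A.2 and -0.188 in that of shARID1B.3 and shARID1B.2. TH, the rate-limiting enzyme, had 2047, 2025 and 2140 against 618, 711 and 686, with a control mean of 678. DBH, which makes noradrenaline, had 1190, 1078 and 1126 against 158, 138 and 181, with a control mean of 529. Thus TH was above the control in one set and at its level in the other, and DBH was above it in one and below it in the other. MAOA, which breaks the transmitter down, was lower by a difference of -1.44 (498, 521 and 473 against 1420, 1281 and 1344) and above its control mean of 138 in both.

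The adrenergic transcription factors were split, with 12 of 24 higher and 10 lower, where 39.5% and 39.1% of all genes were. Their median was 0.11 (-0.04 when scaled by total reads). MYCN, the driver oncogene of this line, had 218170, 216230 and 221300 against 84499, 86206 and 84726, on either side of a control mean of 122680 (1.36). HAND2 had 17809, 16500 and 16952 against 6791, 6827 and 6944 (1.32). The mesenchymal list had 13 of 22 higher and 6 lower, with a median of 0.35. SNAI2, a repressor of epithelial genes, had 527, 557 and 524 against 137, 162 and 148, with a control mean of 628. AXL, a receptor kinase, and MAFF were higher by 1.92 and 1.71, and WWTR1, the co-activator TAZ, was lower by a difference of -1.58.

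Of the growth factor receptors 11 of 21 were lower and 8 higher, where 39.1% and 39.5% of all genes were. Past 2-fold there were 7 lower and 2 higher, where 12% and 9.78% of all genes were. The list median was -0.60. With at least 10 reads asked in every library, which removes the weakly expressed ERBB4 and NTRK3, the median was -0.01, with 9 lower and 8 higher. GFRA2, a GDNF family co-receptor, had 1146, 1156 and 1080 against 4099, 4392 and 4298, with a control mean of 2107. ERBB2 had 143, 135 and 178 against 698, 694 and 641. EGFR went the other way, with 2049, 2288 and 2195 against 383, 418 and 361 (2.49), around a control mean of 1203. Among axon guidance genes, 16 of 34 were higher and 15 lower, with ROBO2 at -2.47, NRP1 at -1.70 and EFNB2 at 1.73. Synaptic vesicle genes had 11 of 27 in each direction, near the shares of all genes.

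Of 25 ligand-gated receptor subunits 11 were higher and 8 lower, where 39.5% and 39.1% of all genes were. CHRNA3, a nicotinic subunit, had 11226, 10617 and 10909 against 4777, 4582 and 4562 (1.23), and GABRA4 was higher by 1.85. HTR3A belongs to this list too, and no other member was lower by as much. The filter removed 13 of 38 listed receptor subunits, 7 of 26 integrins and 11 of 39 collagen chains. For adhesion, 7 of 19 integrins were higher and 8 lower, near the shares of all genes. ITGA5, the fibronectin receptor subunit, had 712, 750.2 and 738 against 81.1, 105 and 103, around a control mean of 285 (2.92), whereas ITGA2, ITGA6 and ITGA7 were at -1.05, -0.97 and -1.38. Cadherins had 4 of 13 higher, CDH2 at 0.91 among them, and 7 lower. Of 51 clustered protocadherins, whose transcripts share exons within a cluster, 19 were higher and 21 lower.

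Collagen chains had 11 of 28 higher and 9 lower, where 39.5% and 39.1% of all genes were. COL1A1 had 7193, 7780 and 7592 against 742, 902 and 835, below a control mean of 12929 in both (3.19). COL13A1, COL27A1 and COL6A3 were higher by 1.85 to 2.48. Other matrix genes had 12 of 26 higher and 10 lower, with the proteoglycan BGN at 1.86 and THBS1 at 1.86. The medians of these matrix lists, 0.01 and 0.15, turned below 0 when scaled by total reads.

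Among metabolic and signalling lists, more of the hypoxia targets were higher than lower. Of 25 members 17 were higher and 7 lower, where 39.5% and 39.1% of all genes were. Their median was 0.52 (0.37 when scaled by total reads). VEGFA, an angiogenic factor, had 4917, 5279 and 5199 against 1202, 1160 and 1203, around a control mean of 2043 (2.11), whereas SLC2A3, a glucose transporter, was at -2.07 and ADM at -2.08. Cholesterol genes had 10 of 24 higher and 11 lower, and fatty acid genes 3 of 9 higher and 5 lower, the desaturase SCD among them at -1.17. Of 27 immediate-early genes 14 were higher and 10 lower, EGR1 at 2.82 and ARC at 2.08. The lists of TGF-beta, WNT, Notch and YAP/TEAD genes had 15 of 27, 16 of 35, 10 of 20 and 8 of 20 members higher and 10, 13, 7 and 9 lower, with TGFBR2 at 1.95, FZD5 at -2.09, NOTCH3 at 1.69 and NT5E at -1.74.

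Genes of ribosomes and mitochondria differed by little. Of 76 ribosomal protein genes 63 were higher and 6 lower, where 39.5% and 39.1% of all genes were. None of them was past 2-fold, where 21.8% of all genes were. The list median was 0.22 (0.07 when scaled by total reads, with 41 higher and 13 lower). RPL3 had 70869, 68070 and 71262 against 48010, 46427 and 45657. Of 13 genes of the mitochondrial genome 9 were higher and 0 lower, and of 43 nuclear genes of the respiratory chain 23 were higher and 11 lower. Their medians, 0.11 and 0.08, turned below 0 when scaled by total reads. NDUFA5, a subunit of complex I, stood out with 849, 861 and 823 against 3021, 2924 and 2944 (-1.81).

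**Figure D5:**
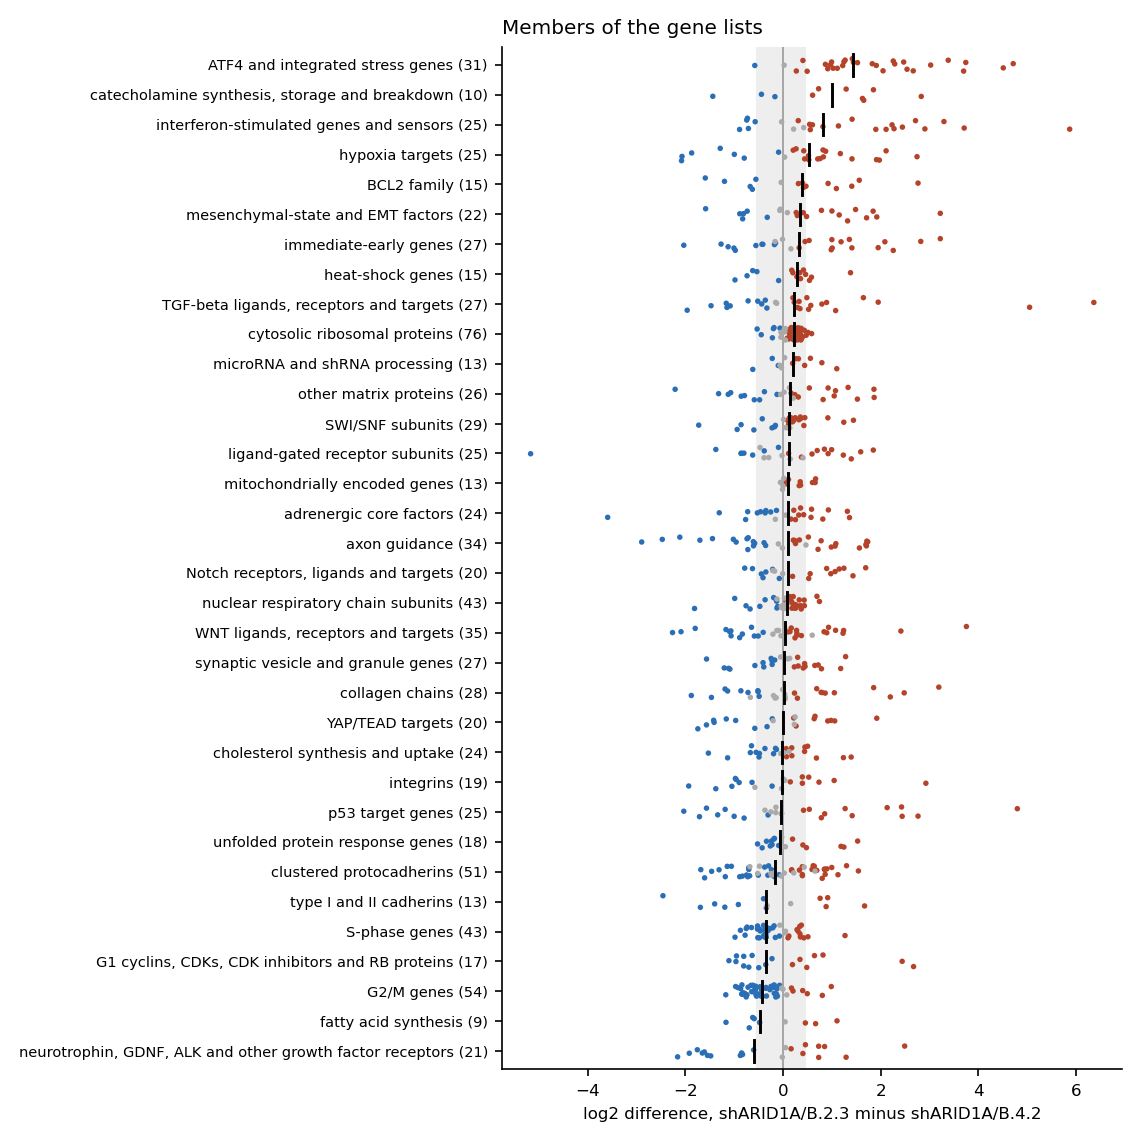
Log2 difference (x axis) of every tested member of the gene lists (y axis, number of members in brackets), as red points where called higher, blue where called lower and grey where not called. Black bars are list medians, the grey line is the median of all genes and the shaded band their interquartile range. Among the lists drawn, which leave out the markers of other cell types, the stress response list has the highest median, 1.44, and the growth factor receptor list the lowest, -0.60.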

How the data were processed

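The authors sequenced poly(A)-selected RNA of 21 samples with a strand-specific kit on a NovaSeq instrument. The submitters' processing notes name STAR 2.5.3a, RSEM 1.3.0, DESeq2 1.26.0 and GRCh38. Their deposited signal is, for each gene, the reads of a library over its size factor. Whole reads were recovered for 100% of values (tolerance 0.05 read). No column was left without a library. The authors' tables of comparisons with the control (fold changes, p-values) were not used.

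Of 60728 identifiers, the 17307 that passed filterByExpr of edgeR were tested with limma (trend) on log2 of the value plus a pseudocount of 1, which understates differences of low genes, with Benjamini-Hochberg adjustment over all genes. Calls used an adjusted p of 0.05, and the 2-fold calls a log2 difference above 1 in size. Differences are shARID1A/B.2.3 minus shARID1A/B.4.2. Replicate libraries differed by more than sampling noise, with chi-square values of 1.93 to 3.55 for each degree of freedom.

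The genes named were the 12 protein-coding genes with the largest difference each way (mean of at least 100, past 2-fold, no overlap), 3 of other classes each way, and up to 6 members of each list (mean of at least 50). The members, 38 gene lists and alternatives were chosen with earlier results of these data known. The other pairs of conditions, the motifs and 3 further lists were added after seeing values. No list test was run, and a few list members are not reported here. Counting intervals cover counting error only. Of the identifiers, 58541 were found in GENCODE release 29 without their version. Promoter sequences are from RefSeq (GRCh38.p14), matched by symbol, and a gene with several starts counted once.

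The fits were tested on simulated data. R 4.3.3, limma 3.58.1, edgeR 4.0.16, DESeq2 1.42.0 and Python 3.11.15 were used.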

Additional observations from a re-analysis of the deposited data

How the results depend on the processing

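Over the settings the number of called genes ranged from 12487 to 14735. With edgeR it was 13653, of which 3852 were past 2-fold, and with DESeq2 12586 and 3724. The ARID1A difference turned to -0.10 when scaled by total reads (adjusted p = 0.00498 from limma) and to -0.044 with upper-quartile scaling (adjusted p = 0.155). Leaving out single libraries gave ARID1A differences from 0.045 to 0.077, with the call gained without replicate 1 of shARID1A/B.2.3 (0.076, adjusted p = 0.0314 from limma) and without replicate 1 of shARID1A/B.4.2 (0.077, adjusted p = 0.0234), so these libraries decide it. The ARID1B difference kept its direction and call under every setting run, from 0.29 to 0.46. The number of genes past 2-fold and lower, 2083, was 3197 with no filter, where 31609 genes were tested, and 1333 with at least 10 reads in every library, where 15509 were. Of the tests of named genes under the alternatives, 4139 kept direction and call and 1, CDH7 with all 21 libraries in the fit, lost the call (0.76, adjusted p = 0.0565). The replicate numbers did not pair the libraries, since the deviations of same-numbered libraries had correlations of 0.024, -0.029 and -0.049. With the replicate block 13531 genes were called, 3787 of them past 2-fold, and the ARID1A and ARID1B differences and the calls of named genes stayed on their side of the threshold. Genes with few reads in one set, such as INHBE and TLR3, have the least exact differences.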

Other observations

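Further gene groups were assembled after the values were seen and are given as descriptions only. Of 27 targets of NRF2, the transcription factor of the antioxidant response, 23 were called higher in shARID1A/B.2.3 and 2 lower, against 39.5% and 39.1% of all genes, with a median of 0.78. SRXN1, which restores oxidized peroxiredoxins, had normalized counts of 2374, 2320 and 2291 against 262, 248 and 273, around a control mean of 713. NQO1, a quinone reductase, had 7042, 7161 and 6868 against 1909, 1922 and 1945, and its control mean of 1778 was near the second set. HMOX1 and SLC7A11 belong to this list too, and SLC7A11 also to that of ATF4. In the pair of shARID1A.4 and shARID1A.2 the same counts were 23 and 2, against 39.4% and 40.0% of all genes. The list median was 0.89. In that of shARID1B.3 and shARID1B.2 the counts were 23 and 2 too, against 35.3% and 34.5%, with a median of 0.52.

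Of 32 imprinted genes 20 were higher and 8 lower, against 39.5% and 39.1% of all genes, with a median of 0.41. IGF2, H19, GRB10, PEG13 and KCNK9 of this list were described above. DIO3, which inactivates thyroid hormone, was higher by 1.43, and the mesoderm gene MEST was lower by a difference of -2.08.

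Of 28 hnRNP genes 14 were higher and 12 lower, against 39.5% and 39.1% of all genes. Their median was 0.05 and turned to -0.10 when scaled by total reads. PCBP2, which binds C-rich RNA, had 8455, 8554 and 8476 against 26261, 25996 and 25587, and a control mean of 22857. PCBP1 was at -1.11, HNRNPUL2 at 1.06, and HNRNPA1L2, which is near-identical to HNRNPA1 and uncertain for that reason, at -1.27. In shARID1A/B.2.3, HNRNPA1 was thus 1 of 4 genes of the list that were past 2-fold and lower, where 12% of all genes were.

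Among marker lists of other cell types, PTPRC, the leukocyte antigen CD45, had 59.7, 57.3 and 63.2 against 156, 141 and 172 and a control mean of 411. EPCAM, an epithelial adhesion molecule, was at -1.42. Of the tested members of the immune, epithelial, fibroblast or endothelial, and Schwann lists, 1 of 4, 0 of 5, 2 of 8 and 2 of 4 were called higher and 2, 2, 5 and 2 lower. The shares of all genes were 39.5% and 39.1%. The part of the called markers in the difference between the sets was not tested.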
